A study of Mus musculus with 3 samples.

Results

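Alveolar cells that express Cdkn1a, the p21 inhibitor of cyclin-dependent kinases and a classical target of the tumour suppressor p53, were examined in mouse lung after bleomycin. A cell barcode was a member when it held at least 3000 UMIs (unique molecular identifiers, each standing for 1 captured RNA molecule) and 500 genes, at most 15% mitochondrial UMIs, at least 0.15% of its UMIs from Cdkn1a, at least 1% from Sftpc and under 5% from Scgb1a1, and no UMI of the leukocyte gene Ptprc. The rule gave 269 Cdkn1a-high Sftpc cells among 16627 deposited barcodes, of which 8781 passed the limits on UMIs, genes and mitochondrial RNA. They were 18 cells of the Club-Tracer library, 34 of the BASC-Tracer library and 217 of the AT2-Tracer library. Because measured Cdkn1a, Sftpc, Scgb1a1 and Ptprc chose the cells, those genes are left out of the results, and every difference from other cells of the same libraries is a description without a test.

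The libraries came from Scgb1a1-CreER;Sftpc-DreER;R26-TLR mice taken 4 weeks after bleomycin, a drug that breaks DNA and injures the alveolar epithelium. CreER was driven by Scgb1a1, the secretoglobin of airway club cells, DreER by Sftpc, the surfactant protein C gene of alveolar type 2 (AT2) cells, and R26-TLR is the fluorescent reporter allele. Dissociated whole lung was sorted by colour into Club-Tracer (tdTomato+), BASC-Tracer (ZsGreen+, tdTomato+; BASC stands for bronchioalveolar stem cell) and AT2-Tracer (ZsGreen+) cells, and each sort gave 1 library of 5′ transcript ends. All libraries carried the same alleles and the same injury, and no uninjured library was analysed here. The number of animals behind a library, their age and the time of recombination are not given in the sources used here. With 1 library for each lineage no comparison has a replicate check and no test between groups was possible.

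p53 is a transcription factor that accumulates after DNA damage and other stress. Its targets slow the cell cycle, feed back on p53 itself, repair DNA, alter metabolism and prepare the cell for apoptosis. AT2 cells make surfactant and can divide and give rise to the flat alveolar type 1 (AT1) cells, and p53 targets are known to be raised in the intermediate cells that appear between these states after lung injury.

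Levels are CPM, UMI counts summed over the cells of a group and library and scaled to a common total, with exact Poisson 95% intervals where shown. Log2 ratios are of CPM + 5, a scale that understates the differences of low genes. All intervals cover counting error only and leave out variation between cells and between animals. The members were set beside Cdkn1a-low Sftpc cells, which met the same limits except that Cdkn1a stayed under 0.15% of UMIs (339 cells in the Club-Tracer, 298 in the BASC-Tracer and 1566 in the AT2-Tracer library). Members held medians of 13229, 20382.5 and 13972 UMIs in Club-Tracer, BASC-Tracer and AT2-Tracer sorts, against 24012, 30565.5 and 17344.5 UMIs in Cdkn1a-low cells. With every cell thinned to 3000 UMIs the median log2 ratio of p53 targets described below was 1.64 in the BASC-Tracer and 1.57 in the AT2-Tracer library, and 1.43 and 1.46 without thinning. Shares of cells with a UMI are given after thinning. At that depth members showed medians of 1411.5, 1427 and 1443 genes, against 1277, 1328 and 1318 genes in Cdkn1a-low cells. Mitochondrial shares were medians of 1.61%, 1.37% and 1.60% in members, against 1.76%, 1.65% and 2.18% in Cdkn1a-low cells.

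Marker genes of AT2 cells were high in members. The Sftpc limit chose both members and Cdkn1a-low cells, so these levels are a description and no check of the alveolar name. Surfactant protein genes Sftpa1 and Sftpb stood at 16551 and 11465 CPM in AT2-Tracer members, against 16569 and 14510 CPM in Cdkn1a-low cells. Of the markers of other lineages, Tyrobp and endothelial genes were near 0 in members. Over the 3 libraries Tyrobp, a leukocyte adaptor, stood at 0, 0 and 5.64 CPM, and endothelial genes summed to 3.35, 13.3 and 15.4 CPM. No library had a Krt5 UMI, from a keratin of basal cells, in its members. A list of 7 basal genes summed to 90.4, 2.66 and 3.86 CPM in members, against 22.2, 3.04 and 1.99 CPM in Cdkn1a-low cells. Club-Tracer members held UMIs of 3 of these genes, so basal transcripts were not near 0 there. A list of 13 macrophage genes summed to 208, 30.6 and 174 CPM in members, against 22.2, 55.6 and 221 CPM in Cdkn1a-low cells and 12350, 59607 and 47524 CPM in Ptprc cells (10, 70 and 984 barcodes with at least 2 Ptprc UMIs and no Epcam or Cdh1). In Club-Tracer members Apoe alone of that list was detected. A list of 23 AT2 genes summed to 82178, 58385 and 59462 CPM in members, against 99162, 85752 and 74544 CPM in Cdkn1a-low cells. In Ptprc cells the AT2 list summed to 10878, 23057 and 24586 CPM. A list of 12 club cell genes summed to 8432, 6732 and 1949 CPM in members, against 7057, 4747 and 1864 CPM in Cdkn1a-low cells, and a list of 8 ciliated cell genes to 97.1, 73.2 and 207 CPM, against 117, 86.5 and 138 CPM. Airway transcripts were therefore present in both groups, those of club cells most in the Club-Tracer library. The part of these transcripts in the results below was not tested.

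Of the 4 marker genes that go with Cdkn1a in the name of these cells, Gdf15, Phlda3 and Ccng1 were higher in members than in Cdkn1a-low cells of every library, and Sprr1a was not. Gdf15 encodes a secreted stress cytokine (protein-coding, reverse strand, chr8:70629393-70632456, mm10). It stood at 80.4 CPM (51.5 to 120), 441 CPM (395 to 491) and 441 CPM (419 to 464) in Club-Tracer, BASC-Tracer and AT2-Tracer members, against 24.7, 21.8 and 19.1 CPM in Cdkn1a-low cells. The ratio was 20.2-fold (16.9 to 24.2) in the BASC-Tracer library and 23.1-fold (20.9 to 25.5) in the AT2-Tracer library. Its RNA was concentrated in a minority of cells: after thinning, 29.5% of AT2-Tracer members held a Gdf15 UMI, against 3.45% of Cdkn1a-low cells. In BASC-Tracer members 3 cells held 76.4% of the Gdf15 UMIs, and without the 3 highest cells of each group the log2 ratio was 2.80, against 4.06 with them. Ptprc cells had Gdf15 at 534 CPM and in 46.1% of thinned cells, and macrophages are themselves known to express it, so they give no background for this gene.

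Phlda3, which codes for an inhibitor of Akt signalling at the membrane (forward strand, chr1:135766119-135769136), was the most evenly shared of these markers after Ccng1. It stood at 214, 353 and 399 CPM in Club-Tracer, BASC-Tracer and AT2-Tracer members, against 43.7, 39.0 and 45.8 CPM in Cdkn1a-low cells, an 8.70-fold ratio (8.05 to 9.39) in the AT2-Tracer library. A Phlda3 UMI was present in 55.3% of thinned AT2-Tracer members, 10.5% of Cdkn1a-low cells and 7.22% of Ptprc cells. Ccng1, cyclin G1, a feedback regulator of p53 through Mdm2 (reverse strand, chr11:40748552-40755311), stood at 332, 844 and 706 CPM in members, against 97.1, 173 and 138 CPM in Cdkn1a-low cells. That was 4.89-fold (4.45 to 5.36) in the BASC-Tracer library and 5.13-fold (4.88 to 5.40) in the AT2-Tracer library, with a UMI in 75.1% of thinned AT2-Tracer members, 28.5% of Cdkn1a-low cells and 13.4% of Ptprc cells.

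Sprr1a, a cornified envelope precursor seen in stressed epithelium (reverse strand, chr3:92483952-92485895), marked only some members. It was found in 1 Club-Tracer, 1 BASC-Tracer and 25 AT2-Tracer members, at 36.8, 16.0 and 299 CPM, against 3.97, 45.1 and 37.9 CPM in Cdkn1a-low cells. In AT2-Tracer members 3 cells held 81.1% of its UMIs. The log2 ratio was 2.83 in that library and 1.07 without the 3 highest cells of each group, and in the BASC-Tracer library it was −1.26. The name by Sprr1a thus went against the data in the BASC-Tracer library, and the cells are called here by the rule that chose them.

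Members made up 12.2% (exact Clopper-Pearson interval 10.7 to 13.8) of the 1783 Sftpc cells of the AT2-Tracer library, 10.2% (7.20 to 14.02) of the 332 of the BASC-Tracer library and 5.04% (3.02 to 7.85) of the 357 of the Club-Tracer library. Seen from the other side, cells past the Cdkn1a limit that also met the Sftpc limit were 32.7% (29.2 to 36.4) of 663 AT2-Tracer, 21.7% (15.5 to 28.9) of 157 BASC-Tracer and 9.84% (5.93 to 15.1) of 183 Club-Tracer Cdkn1a-high cells. Both shares were highest in the AT2-Tracer and lowest in the Club-Tracer library, and with 1 library each that order was not tested. The sort gates and the recovery of cells can set such shares, and their part was not tested. Of the reporters, ZsGFP stood at 60.3, 11639 and 9054 CPM and tdT at 1179, 1242 and 0.593 CPM in Club-Tracer, BASC-Tracer and AT2-Tracer members, against 44.1, 8803 and 7239 CPM and 1350, 1683 and 0.735 CPM in Cdkn1a-low cells. Both groups thus carried the colours of their sort.

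The Cdkn1a limit fell within a continuum. In the AT2-Tracer library 69 cells just inside it, with 0.15 to 0.2% of UMIs from Cdkn1a, gave a median 0.450% of their UMIs to the 40 other genes of the p53 list, and 124 cells just outside, with 0.1 to 0.15%, gave 0.356%. Cells under 0.02% gave 0.153% and cells at or over 0.3% gave 0.775%. The 23 AT2 genes took 6.08% just inside the limit and 6.02% just outside, with 7.76% in the lowest and 4.17% in the highest Cdkn1a class. In the BASC-Tracer library the p53 targets took 0.484% just inside (8 cells) and 0.417% just outside (24 cells). In the Club-Tracer library the corresponding shares were 0.340% (8 cells) and 0.329% (26 cells). Neighbouring classes on the 2 sides of the limit lay close in each library, so members are a range of Cdkn1a levels.

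**Figure D1:**
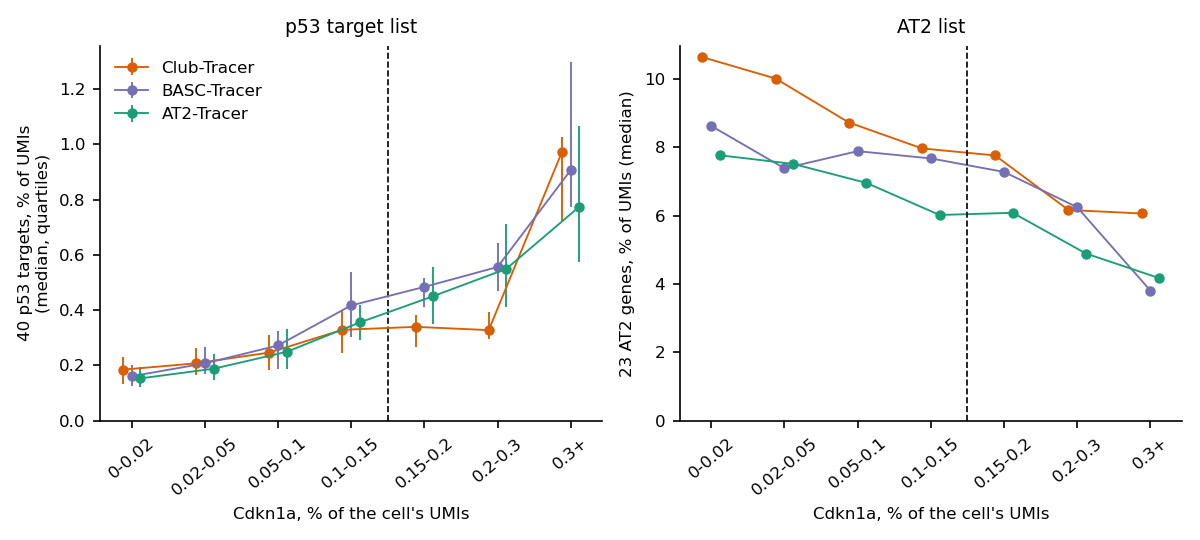
Share of each cell's UMIs in 40 p53 targets (left, median with quartiles) and in 23 AT2 genes (right, median), by class of the cell's Cdkn1a share, for Sftpc cells of the 3 libraries. The p53 share climbs across the dashed limit of 0.15% without a step, reaching 0.775% in the highest AT2-Tracer class, while the AT2 gene share there is 4.17%. The highest Club-Tracer class holds 3 cells.

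The Sftpc limit was the other edge. Among Cdkn1a-high cells of the AT2-Tracer library, 33 cells with 1 to 2% Sftpc, just inside, gave a median 0.649% of UMIs to the p53 targets and 2.39% to AT2 genes, and 26 cells with 0.5 to 1%, just outside, gave 0.496% and 1.48%. The 74 cells with 8% Sftpc or more gave 0.532% to p53 targets and 7.66% to AT2 genes. The AT2 gene share thus followed Sftpc more closely than the p53 share did. Median Sftpc was 4.53%, 5.13% and 5.38% of UMIs in Club-Tracer, BASC-Tracer and AT2-Tracer members, against 8.74%, 7.92% and 8.90% in Cdkn1a-low cells and 0.0215%, 0.0143% and 0.0424% in Ptprc cells.

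p53 targets other than Cdkn1a were higher as a group in members. The list held 40 genes, Trp53 itself included, and CPM was higher in members than in Cdkn1a-low cells for 39 of 40 in the AT2-Tracer library, where 57.2% of all 19607 genes with a UMI were higher, and for 38 of 40 in the BASC-Tracer library, where 48.9% of 17074 were. Fdxr was lower in both, and Cdkn2a had no UMI in BASC-Tracer members, where a count of 0 allows up to 3.99 CPM, against 3.04 CPM in Cdkn1a-low cells. Of the 8 list genes at 50 CPM or more in AT2-Tracer Cdkn1a-low cells, 6 were at least 2-fold higher in members, against 0.712% of all such genes, and of the 10 in the BASC-Tracer library 8 were, against 1.3%. Where the mean of both groups was 50 CPM or more, 1.7% of 2999 genes were at least 2-fold apart in the AT2-Tracer library, 1.3% higher and 0.4% lower, and 2.7% of 3002 in the BASC-Tracer library, 1.93% higher and 0.766% lower. By that limit the median log2 ratio was 1.46 over 16 list genes and 0.14 over all genes in the AT2-Tracer library, and 1.43 over 17 and 0.09 over all in the BASC-Tracer library. These 16 and 17 genes include some that passed only through the members, so the medians are a description. The gene split of 39 higher and 12 lower in the AT2-Tracer library became 29 and 20 when ratios were centred on the median gene, and the 58 and 23 of the BASC-Tracer library became 45 and 29.

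The letters of a p53 half-site, the 10-base consensus bound by a pair of p53 subunits, were looked for in the 250 bases before each RefSeq start (GRCm38.p6). The consensus is its own reverse complement, so a search of 1 strand covers both. Of 13 p53 targets past the mean limit in the AT2-Tracer library with a promoter in the table, 5 held a half-site (38.5%: Ccng1, Mdm2, Bax, Ei24 and Rps27l), against 8.20% of 27025 genes and 7.13% of 32851 promoters. Some of these targets, Mdm2 among them, passed that limit only through the members, so the share is a description. A half-site was present in 2 of 11 of the 12 genes named below as highest in members and in 1 of 9 of the lowest. A match describes letters only and its absence says nothing about p53, whose sites often lie elsewhere. Rps27l, on the forward strand, was also higher in members and held 2 half-sites, but its promoter is not shown. The promoters of the other 4 targets, likewise higher in members, are shown. All are on the reverse strand and read 5′ to 3′ in the direction of the gene, with the half-site in capitals. They are chr10:117710759-117711008 for Mdm2 (half-site 186 to 177 bases before the start), chr11:40755287-40755536 for Ccng1 (185 to 176), chr7:45466899-45467148 for Bax (201 to 192) and chr9:36797335-36797584 for Ei24 (10 to 1).
Mdm2: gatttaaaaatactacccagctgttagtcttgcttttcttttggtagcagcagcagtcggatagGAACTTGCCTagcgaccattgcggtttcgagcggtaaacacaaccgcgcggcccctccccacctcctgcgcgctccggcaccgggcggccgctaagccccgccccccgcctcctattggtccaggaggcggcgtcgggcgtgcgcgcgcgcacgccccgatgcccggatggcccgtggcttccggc
Ccng1: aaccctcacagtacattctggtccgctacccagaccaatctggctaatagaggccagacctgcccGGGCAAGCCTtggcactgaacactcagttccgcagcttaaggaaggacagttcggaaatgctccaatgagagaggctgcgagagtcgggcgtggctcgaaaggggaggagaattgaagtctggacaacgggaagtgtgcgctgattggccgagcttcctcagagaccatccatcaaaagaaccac
Bax: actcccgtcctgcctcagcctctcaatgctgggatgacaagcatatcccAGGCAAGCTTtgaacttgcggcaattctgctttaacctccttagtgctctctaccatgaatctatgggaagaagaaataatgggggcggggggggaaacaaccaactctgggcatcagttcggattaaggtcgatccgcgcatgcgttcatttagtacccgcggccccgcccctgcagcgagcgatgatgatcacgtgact
Ei24: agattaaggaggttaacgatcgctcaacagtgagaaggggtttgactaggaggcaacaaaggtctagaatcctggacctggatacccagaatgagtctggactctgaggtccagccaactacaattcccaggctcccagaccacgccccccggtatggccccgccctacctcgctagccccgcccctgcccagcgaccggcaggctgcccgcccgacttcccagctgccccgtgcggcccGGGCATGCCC

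Feedback and arrest targets formed the first group. Mdm2, the ubiquitin ligase that degrades p53 and carries the first promoter above, stood at 83.7, 254 and 184 CPM in Club-Tracer, BASC-Tracer and AT2-Tracer members, against 54.3, 61.0 and 47.2 CPM in Cdkn1a-low cells. Btg2, an antiproliferative gene, stood at 603, 1052 and 938 CPM in members, against 355, 338 and 384 CPM. Plk2, a polo-like kinase, stood at 144, 301 and 139 CPM, against 105, 109 and 27.3 CPM. All were higher in members of each library, but in the Club-Tracer library the intervals of Mdm2 (54.2 to 124 CPM, against 49.3 to 59.6) and of Plk2 (104 to 194 CPM, against 98.0 to 112) overlapped. Zmat3, an RNA-binding p53 target, had log2 ratios of 1.55 and 1.46 in the BASC-Tracer and AT2-Tracer libraries. Trp53, which encodes p53, stood at 36.8, 39.9 and 36.5 CPM in members, against 34.1, 30.9 and 26.3 CPM in Cdkn1a-low cells, so its RNA differed less than that of most targets above, and the intervals overlapped in all but the AT2-Tracer library. Cdkn2a, the senescence-linked p16 and p19ARF gene and not itself a p53 target of the usual kind, stood at 3.35, 0 and 8.90 CPM in members, against 2.23, 3.04 and 1.22 CPM, and its AT2-Tracer log2 ratio of 1.16 was 0.34 without the 3 highest cells of each group.

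Death pathway targets were also higher. Bax, the pore-forming killer of mitochondria, stood at 261, 341 and 428 CPM in Club-Tracer, BASC-Tracer and AT2-Tracer members, against 126, 127 and 151 CPM in Cdkn1a-low cells. Trp53inp1, a p53-induced nuclear protein, stood at 63.6, 224 and 174 CPM, against 27.9, 30.9 and 33.0 CPM. Aen, an exonuclease of apoptosis, stood at 46.9, 71.9 and 77.4 CPM, against 20.9, 20.7 and 21.7 CPM. These genes were higher in every library. Perp, a desmosomal p53 target, differed less, with overlapping Club-Tracer intervals, at 93.8, 83.9 and 99.1 CPM, against 70.9, 55.3 and 52.7 CPM. The death receptor Fas stood at 23.4, 30.6 and 35.6 CPM in members, against 6.70, 8.13 and 7.80 CPM. In the AT2-Tracer library the BH3-only genes Bbc3 (Puma) and Pmaip1 (Noxa) stood at 48.1 and 3.86 CPM in members, against 21.3 and 0.31 CPM. Aen, Fas, Bbc3 and Pmaip1 were picked from the list after their values were seen.

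Among repair and metabolic targets Ephx1, the microsomal epoxide hydrolase, led, with 181, 266 and 267 CPM in Club-Tracer, BASC-Tracer and AT2-Tracer members, against 40.7, 38.9 and 30.6 CPM in Cdkn1a-low cells. Rps27l, a ribosomal protein-like gene, stood at 613, 692 and 815 CPM, against 333, 305 and 346 CPM. Dcxr, a carbonyl reductase placed in the death list, stood at 670, 704 and 704 CPM, against 371, 327 and 311 CPM. These differed little between libraries. Sesn2, a stress-induced regulator of mTORC1, stood at 103 and 70.3 CPM in BASC-Tracer and AT2-Tracer members, against 36.7 and 32.7 CPM. Ddit4, another inhibitor of mTORC1, differed less, with log2 ratios of 0.78 and 0.15.

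**Figure D2:**
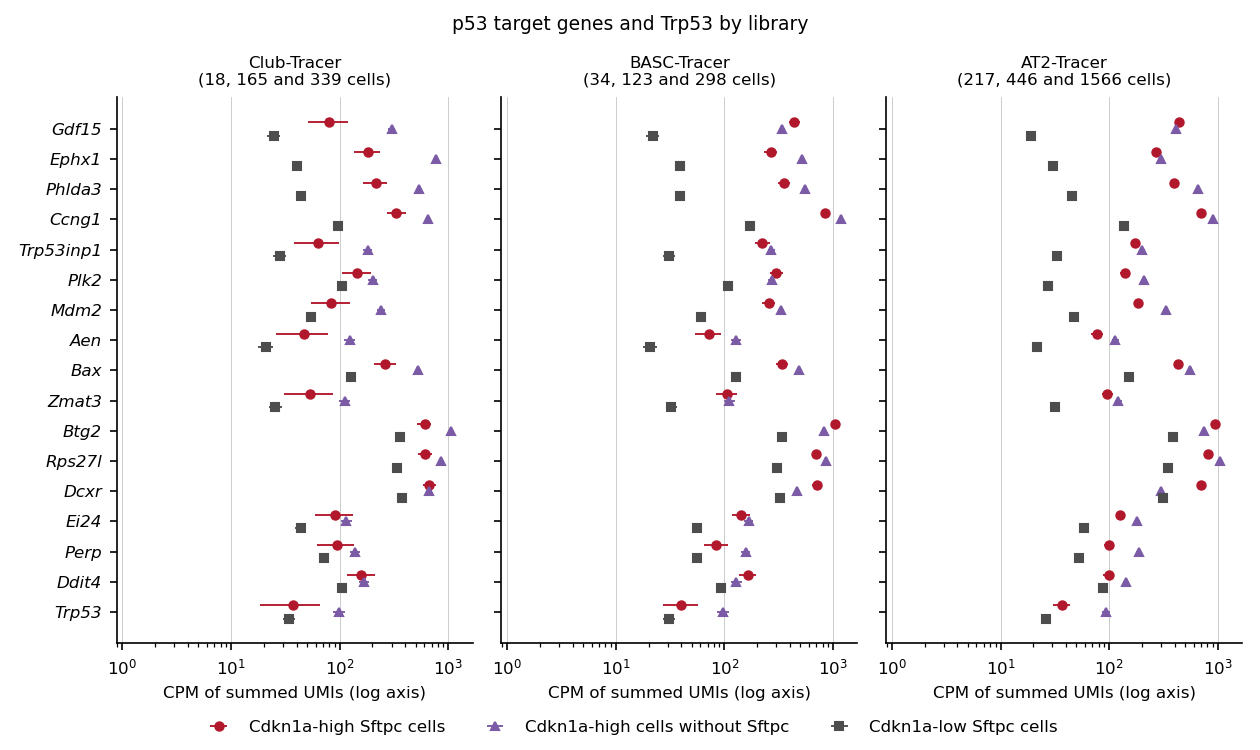
CPM (log axis) of 17 genes in Cdkn1a-high Sftpc cells (circles), Cdkn1a-high cells without Sftpc (triangles) and Cdkn1a-low Sftpc cells (squares), 1 panel for each library, with exact Poisson 95% intervals that cover counting error only. Gdf15 is the most separated, at 441 CPM in AT2-Tracer members against 19.1 CPM in Cdkn1a-low cells, and Trp53 one of the least, at 36.5 against 26.3 CPM.

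Cell by cell, the p53 targets took 0.128% of UMIs in the lowest, 0.558% in the median and 2.26% in the highest of the 217 AT2-Tracer members, against 0, 0.182% and 0.798% in Cdkn1a-low cells. In the BASC-Tracer library they took 0.216%, 0.595% and 1.85% in members, against 0.030%, 0.186% and 1.06%. In the Club-Tracer library they took 0.142%, 0.357% and 1.08% in members, against 0, 0.203% and 0.649%. The groups overlapped in each library, least in the BASC-Tracer and AT2-Tracer libraries. Above the 95th percentile of the Cdkn1a-low cells lay 7 of 18 Club-Tracer members (38.9%), 28 of 34 BASC-Tracer members (82.4%) and 168 of 217 AT2-Tracer members (77.4%). After thinning, at least 4 of the 16 targets were seen in 88.9% (65.3 to 98.6), 91.2% (76.3 to 98.1) and 94.9% (91.1 to 97.4) of members, against 46.6%, 45.3% and 43.2% of Cdkn1a-low cells and 20%, 40% and 31.2% of Ptprc cells. These 16 targets are those past the mean limit in the AT2-Tracer library, of which 8 passed in the Cdkn1a-low cells alone, so the shares are a description. Across the 217 AT2-Tracer members, which share 1 library, the Spearman correlation of the p53 share with the AT2 gene share was −0.01, with the AT1 gene share −0.27, with immediate early and heat shock genes 0.27 and with UMIs per cell −0.08. Across the 34 BASC-Tracer members the same correlations were −0.22, 0.21, 0.10 and 0.13, and that with the mitochondrial share was −0.39, against −0.04 in the AT2-Tracer library. These are given as a description.

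Beyond the targets, the 12 genes furthest above Cdkn1a-low cells in the AT2-Tracer library, the only library with at least 50 members, were Gdf15, Phlda3, Ephx1, Sprr1a, Cox6b2, Ccng1, Trp53inp1, Plk2, Mdm2, Krtap17-1, Srxn1 and Gstm1. The list of p53 targets held 7 of them. Cox6b2, a testis-enriched subunit of cytochrome c oxidase, stood at 53.6, 105 and 107 CPM in Club-Tracer, BASC-Tracer and AT2-Tracer members, against 10.6, 12.7 and 14.9 CPM. Srxn1, sulfiredoxin, which repairs oxidised peroxiredoxins, stood at 50.2, 154 and 112 CPM, against 27.1, 26.0 and 30.1 CPM. Gstm1, a glutathione transferase of a family of near-identical copies whose counts may be split among them, stood at 208, 198 and 150 CPM, against 154, 122 and 49.9 CPM. Without the 3 highest cells of each group the BASC-Tracer log2 ratio of Cox6b2 was 1.82 (2.64 with them) and that of Srxn1 1.61 (2.36). All were higher in each library, although the Club-Tracer intervals of Srxn1 (28.1 to 82.9 CPM, against 23.6 to 30.9) and of Gstm1 (159 to 266 CPM, against 145 to 163) overlapped. Krtap17-1, a keratin-associated protein of hair, stood at 322, 128 and 179 CPM, against 178, 68.5 and 46.4 CPM, and its log2 ratio of 0.85 in the BASC-Tracer library was 0.16 without the 3 highest cells of each group. Of the 12, 11 kept their direction in the BASC-Tracer library (9 at least 2-fold). There 60.7% of genes were above 0 and 1.93% at least 2-fold higher.

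Of the 12 genes furthest below Cdkn1a-low cells in the AT2-Tracer library Lrg1 came first. Lrg1, an acute phase glycoprotein (reverse strand, chr17:56119678-56122001), stood at 395, 651 and 481 CPM in Club-Tracer, BASC-Tracer and AT2-Tracer members, against 1086, 1354 and 2131 CPM in Cdkn1a-low cells. After thinning, a Lrg1 UMI was present in 29.5% of AT2-Tracer members and 74.3% of Cdkn1a-low cells. Ptprc cells, at 32.1%, lay close to the members, so at this depth the share in members cannot be told from background. Complement component 5 (Hc) stood at 167, 244 and 226 CPM in members, against 206, 546 and 757 CPM. Orm1, another acute phase glycoprotein, stood at 26.8, 22.6 and 29.4 CPM, against 121, 101 and 89.9 CPM. Without the 3 highest cells of each group the BASC-Tracer log2 ratio of Lrg1 was −1.75 (−1.05 with them) and that of Hc −2.91 (−1.15). Hc and Orm1 were lower in members of each library, although the Club-Tracer intervals of Hc (124 to 221 CPM, against 197 to 217) overlapped.

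The other genes of that group differed more between libraries. Il33, the nuclear alarmin cytokine, stood at 0, 108 and 68.0 CPM in Club-Tracer, BASC-Tracer and AT2-Tracer members, against 31.5, 120 and 203 CPM in Cdkn1a-low cells. The count of 0 in Club-Tracer members allows up to 10.0 CPM. Ptgs1, cyclooxygenase 1, stood at 46.9, 65.2 and 123 CPM, against 75.7, 186 and 375 CPM. Gpc3, a membrane heparan sulphate proteoglycan, stood at 22.8 CPM in AT2-Tracer members, against 87.5 CPM, and at 3.99 CPM from 3 UMIs in BASC-Tracer members, against 39.7 CPM. Tmem213, the uncharacterised AU021092, the laminin-binding integrin Itga7, the lipid transporter Mfsd2a, collagen VI chain Col6a2 and the endocytic receptor Lrp2 made up the rest, with log2 ratios of −1.49 to −1.08 in the AT2-Tracer library. All 12 were lower in the BASC-Tracer library (6 at least 2-fold), where 39.3% of genes were below 0 and 0.766% at least 2-fold lower. There the intervals of Il33, AU021092, Mfsd2a and Col6a2 overlapped. Without the 3 highest cells of each group the BASC-Tracer log2 ratio of Il33 was −1.02 (−0.14 with them), that of Mfsd2a −1.78 (−0.38), that of Col6a2 −1.05 (−0.20), that of Tmem213 −1.26 (−0.67) and that of Gpc3 −2.94 (−2.31). In the Club-Tracer library 8 of the 12 were lower in members, and Itga7, Mfsd2a, Col6a2 and Lrp2 were higher. These 4 stood at 36.8, 36.8, 93.8 and 164 CPM in members, against 30.9, 21.4, 90.3 and 129 CPM, with overlapping intervals.

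**Figure D3:**
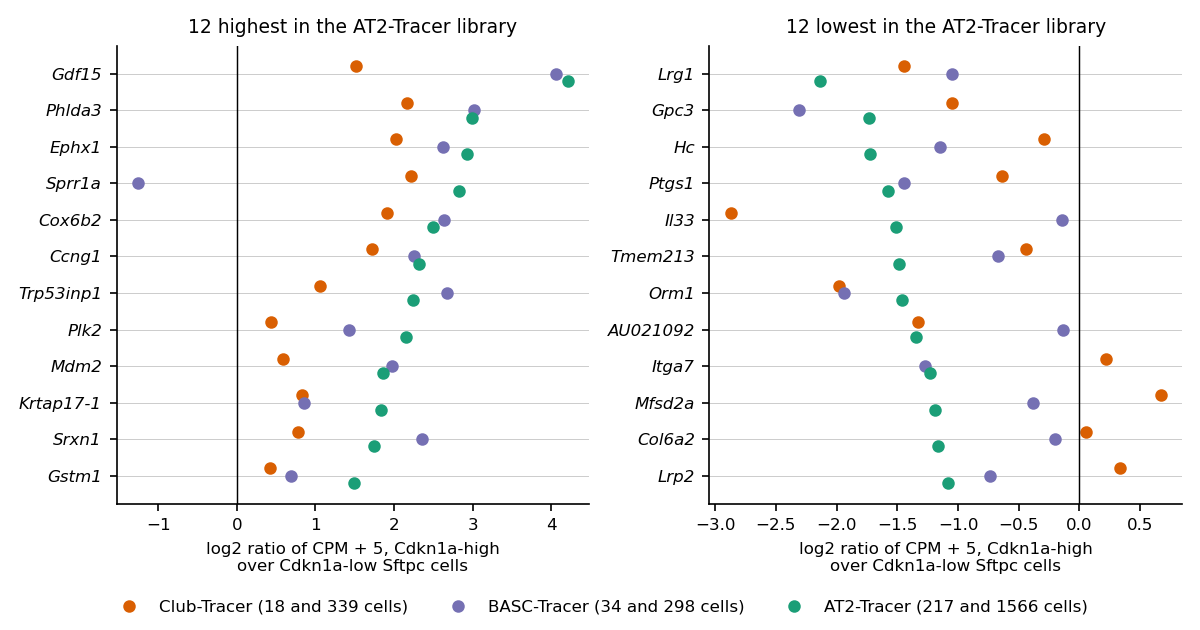
Log2 ratio of CPM + 5 in Cdkn1a-high over Cdkn1a-low Sftpc cells for the 12 highest and the 12 lowest genes of the AT2-Tracer library, with the same ratios in the BASC-Tracer and Club-Tracer libraries. Gdf15 stands at 4.21 and Lrg1 at −2.14 in the AT2-Tracer library, and Sprr1a is the gene of the highest group with an opposite sign in the BASC-Tracer library, at −1.26.

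The AT2 programme was lower in members but present. Of 23 AT2 genes, all tested, 21 were below 0 in the AT2-Tracer library (31.4% of all genes were) with a median log2 ratio of −0.40, and 23 in the BASC-Tracer library (39.3%) with a median of −0.38. At least 2-fold lower were Hc and Il33 in the AT2-Tracer library, and Fabp5, Lyz1 and Hc in the BASC-Tracer library. Cxcl15, the lung chemokine lungkine, stood at 8773, 6409 and 4528 CPM in Club-Tracer, BASC-Tracer and AT2-Tracer members, against 13092, 12391 and 8338 CPM. Lyz2, lysozyme, whose counts may be split with its copy Lyz1, stood at 6626, 6945 and 6620 CPM, against 18716, 13741 and 10015 CPM. Sftpb, needed for surfactant film formation, stood at 15808, 11924 and 11465 CPM, against 16669, 14762 and 14510 CPM. Sftpa1 stood at 14591 and 16551 CPM in BASC-Tracer and AT2-Tracer members, against 19413 and 16569 CPM. Sftpb, and Sftpa1 in the BASC-Tracer and AT2-Tracer libraries, were thus closer to Cdkn1a-low cells than Cxcl15 and Lyz2 were. The whole list took medians of 6.94%, 6.07% and 4.99% of a cell's UMIs in members, against 9.93%, 8.38% and 7.44%.

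AT1 genes past the mean limit differed little, and none of them was 2-fold apart in the AT2-Tracer or BASC-Tracer library. Their median log2 ratio was 0.18 over 16 tested in the AT2-Tracer library and 0.31 over 11 in the BASC-Tracer library. Ager, the defining AT1 receptor, stood at 981, 996 and 1681 CPM in Club-Tracer, BASC-Tracer and AT2-Tracer members, against 813, 1038 and 1716 CPM. Hopx, a homeodomain cofactor of AT1 cells chosen here after its values were seen, stood at 502, 288 and 433 CPM, against 141, 155 and 277 CPM. Genes of the Krt8 transitional state had a median of 0.53 over 15 tested in the AT2-Tracer library and 0.15 over 12 in the BASC-Tracer library. Of those at 50 CPM or more in Cdkn1a-low cells 11 of 14 were above 0 in the AT2-Tracer library, where 65.1% of all such genes were, and 5 of 11 in the BASC-Tracer library, where 55.8% were. Sfn, the 14-3-3 sigma checkpoint protein and itself a known p53 target, stood at 402, 398 and 454 CPM in members, against 218, 120 and 195 CPM. Krt8, the keratin of that state, stood at 600, 782 and 1096 CPM, against 709, 692 and 844 CPM, and the tight junction gene Cldn4 at 26.8, 70.6 and 149 CPM, against 44.7, 49.9 and 77.0 CPM. Both were furthest above Cdkn1a-low cells in the AT2-Tracer library.

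Stress response lists were higher. Immediate early and heat shock genes had a median log2 ratio of 0.66 in the AT2-Tracer library and 0.84 in the BASC-Tracer library, with 15 of 15 tested above 0 in each. The AP-1 gene Jund stood at 2610, 3220 and 2560 CPM in Club-Tracer, BASC-Tracer and AT2-Tracer members, against 1651, 1635 and 1423 CPM, and the small heat shock gene Hspb1 at 492, 236 and 232 CPM, against 67.8, 74.7 and 100 CPM. Enzymatic dissociation is known to induce such genes, and its part was not tested. Nrf2-linked genes had medians of 0.45 and 0.60, with 12 of 12 and 12 of 13 of those at 50 CPM or more in Cdkn1a-low cells above 0, and with Gclc, the rate-limiting enzyme of glutathione synthesis, at 640, 623 and 493 CPM, against 269, 287 and 254 CPM. Genes of the integrated stress response had medians of 0.62 and 0.87, with 8 of 9 and 7 of 9 such genes above 0, and with Atf3 at 1879, 2784 and 2072 CPM, against 1067, 1205 and 1185 CPM. These counts stand against 65.1% and 55.8% of all genes at 50 CPM or more in Cdkn1a-low cells that were above 0 in the AT2-Tracer and BASC-Tracer libraries, and 68.6% and 60.7% of genes past the mean limit.

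Acute phase genes ran the other way in the AT2-Tracer library, where 9 of 9 tested were below 0 (31.4% of all genes), 4 of them at least 2-fold (0.4%), with a median of −0.87. In the BASC-Tracer library 4 of 8 were at least 2-fold lower (0.766% of all genes) and 3 were above 0 (60.7%), with a median of −0.60. Lipid synthesis genes (−0.15 and −0.10), MHC class II genes (−0.09 and −0.08) and the senescence and secretory list (0.18 and 0.08) had medians near 0 in the AT2-Tracer and BASC-Tracer libraries. Senescence genes therefore did not stand apart as a list from the median gene at 0.14 and 0.09.

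**Figure D4:**
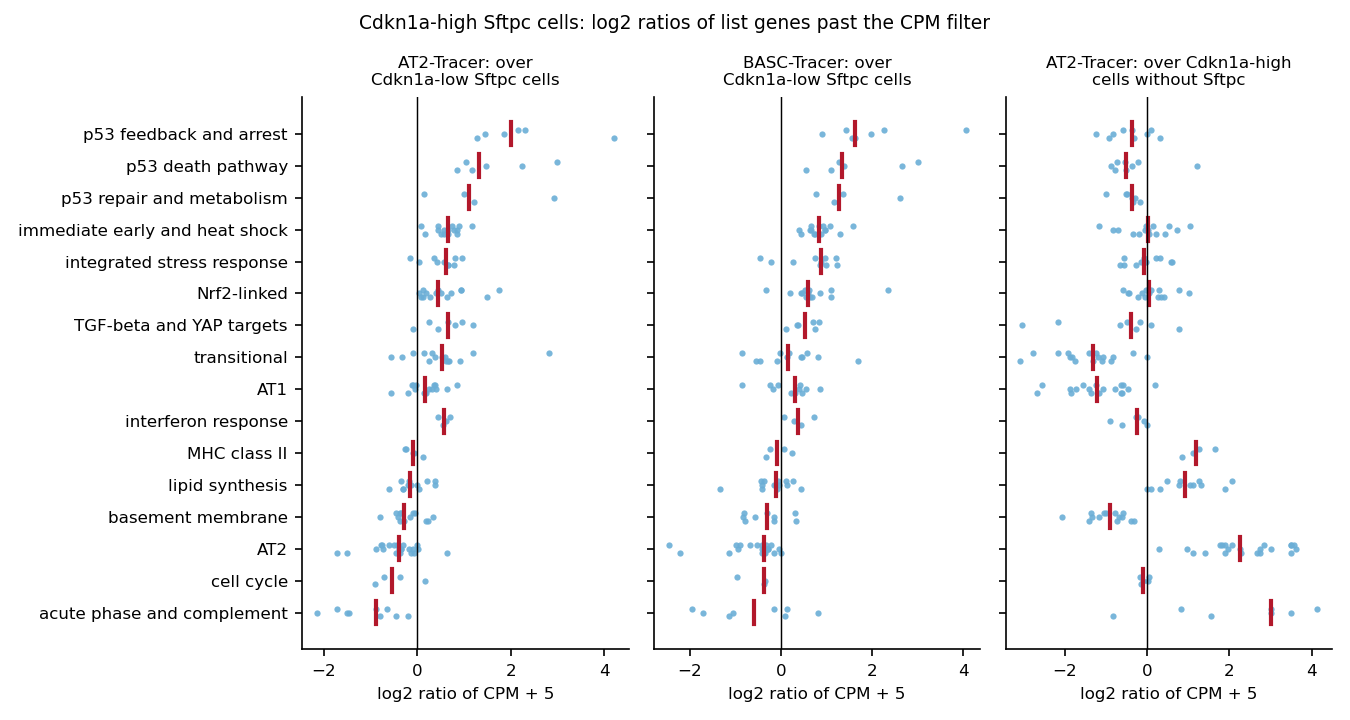
Log2 ratios of CPM + 5 for the genes of each list past the mean limit of 50 CPM (points) with the list median (bar), for Cdkn1a-high over Cdkn1a-low Sftpc cells in the AT2-Tracer (left) and BASC-Tracer (middle) libraries and over Cdkn1a-high cells without Sftpc in the AT2-Tracer library (right). At left and middle the points of the p53 lists lie right of 0, among them genes that passed only through the members. At right the p53 medians lie at −0.36, −0.52 and −0.35, where the median over all genes is −0.24. In that panel AT2 genes stand at 2.27 and transitional genes at −1.32.

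Cell cycle genes were scarce in members. CPM was lower for 21 of 24 in the AT2-Tracer library, where 42.8% of genes with a UMI were lower, and for 16 of 24 in the BASC-Tracer library, where 51.1% were. The list summed to 1306, 924 and 1039 CPM in Club-Tracer, BASC-Tracer and AT2-Tracer members, against 1383, 1465 and 1628 CPM in Cdkn1a-low cells. Mki67, the proliferation antigen, stood at 13.4, 1.33 and 1.19 CPM in members, from 4 UMIs in all 217 AT2-Tracer members, against 14.5, 37.9 and 47.3 CPM. In the AT2-Tracer library Cdkn1a-low cells were thus 39.9-fold (15.5 to 147) above members. The mitotic cyclins Ccnb1 and Ccnb2 were at 0 in BASC-Tracer and AT2-Tracer members, which allows up to 3.99 and 0.890 CPM. The G1 cyclin Ccnd2, chosen after its values were seen, ran the other way, at 56.9, 33.3 and 54.6 CPM in members, against 3.85, 5.42 and 8.78 CPM, or 6.21-fold (5.11 to 7.55) in the AT2-Tracer library, while its relative Ccnd1 stood at 549, 260 and 319 CPM, against 536, 513 and 528 CPM.

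Cdkn1a-high cells without Sftpc (under 1% of UMIs, the other limits alike; 165, 123 and 446 cells) were compared next, to show where the members differ from other cells with high Cdkn1a. The summed list stood at 4224, 6812 and 6393 CPM in Club-Tracer, BASC-Tracer and AT2-Tracer members, against 7610, 7927 and 7555 CPM in the cells without Sftpc, while Cdkn1a-low Sftpc cells had 2174, 2172 and 2111 CPM. In the AT2-Tracer library 3.24% of 3459 genes were at least 2-fold higher in members and 4.68% lower. Of 24 targets tested 1 was higher (Dcxr, at 704 against 299 CPM) and 2 lower, with a median of −0.43. Below 0 were 21 of the 24 targets and 73.5% of all genes, whose median was −0.24. Mdm2 stood at 184 CPM in members and 330 CPM in cells without Sftpc. The transitional, AT1 and contractile lists were lower in members: at least 2-fold for 13 of 17 transitional genes (median −1.32), 11 of 18 AT1 genes (−1.20) and 13 of 17 contractile and actin-binding genes (−1.19). Cldn4 stood at 149 CPM in members, against 1290 CPM, and Krt8 at 1096 against 2308 CPM. Of 22 AT2 genes 20 were at least 2-fold higher in members (2.27), and these gene groups sit next to the Sftpc limit that separated the cells.

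The genes furthest above cells without Sftpc were Retnla, a secreted resistin-like protein, Cxcl15, Lyz2, the phosphate transporter Slc34a2 and Hc, and those furthest below were the actin-binding Tagln, Cldn4, tropomyosin Tpm2, the YAP target Ccn2 and fibronectin Fn1. The BASC-Tracer library gave a similar picture, with 3.31% and 5.01% of 3475 genes at least 2-fold higher and lower, 13 of 17 transitional genes lower (median −1.87), 11 of 17 AT1 genes lower (−1.39) and 20 of 22 AT2 genes higher (2.40). Against the 581 Ager cells without Sftpc of the AT2-Tracer library, where 5.14% of 3368 genes were higher and 10% lower, 11 of 18 p53 targets were at least 2-fold higher in members (median 1.17) and 20 of 21 AT1 genes lower (−2.61). Gdf15 stood at 441 CPM in members and 13 CPM in these Ager cells, Phlda3 at 399 against 88.0 CPM and Ccng1 at 706 against 262 CPM.

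Between libraries, BASC-Tracer and AT2-Tracer members differed little in p53 targets. Over 21 tested the median log2 ratio of BASC-Tracer over AT2-Tracer members was 0.12, with 1 at least 2-fold higher, where 1.52% of 3162 genes were at least 2-fold apart, 0.791% higher and 0.727% lower. In Cdkn1a-low cells the same median was 0.07 over 10 tested. Gdf15 stood at 441 CPM in both. The AT2 list had a median of 0.06. Among the 8 genes furthest above AT2-Tracer members were Cyp2f2, the club cell cytochrome, at 374 CPM in BASC-Tracer and 23.4 CPM in AT2-Tracer members, the monooxygenase Fmo2 (205 against 45.1 CPM), the carbonyl reductase Cbr2 (4248 against 1325 CPM), aldehyde oxidase Aox3 (381 against 120 CPM) and kininogen Kng2 (83.9 against 20.8 CPM). Their log2 ratios of 3.74, 2.07, 1.68, 1.62 and 1.79 stood beside 4.43, 2.53, 1.43, 2.15 and 1.67 in Cdkn1a-low cells, so these differences between libraries were also present in cells under the Cdkn1a limit.

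Spink5 and Ereg, also of that group, rested on few cells. Spink5, a protease inhibitor, stood at 166 CPM in BASC-Tracer and 34.7 CPM in AT2-Tracer members, with 92.8% of the BASC-Tracer UMIs in 3 cells. Ereg, the EGF family ligand epiregulin, stood at 185 against 40.4 CPM, with 99.3% in 3 cells, and its log2 ratio of 2.07 was −0.59 when barcodes found in more than 1 library were left out. Haptoglobin (Hp) stood at 1878 against 463 CPM, with 39.6% in 3 cells. Its log2 ratio was 2.01, beside 1.05 in Cdkn1a-low cells. Lower in BASC-Tracer members were Sprr1a (16.0 against 299 CPM), the fatty acid-binding Fabp5 (21.3 against 147 CPM), apolipoproteins Apoe (25.3 against 109 CPM) and Apoc1 (78.6 against 216 CPM), Psca (25.3 against 109 CPM), Lyz1 (218 against 626 CPM), the MHC class II gene H2-Eb1 (43.9 against 131 CPM) and tissue factor F3 (47.9 against 135 CPM). All BASC-Tracer Lyz1 UMIs came from 3 cells, and 3 cells held 60.6% of those of AT2-Tracer members. Apoe, Apoc1 and H2-Eb1 had log2 ratios of −1.91, −1.41 and −1.47, beside −1.62, −1.24 and −1.01 in Cdkn1a-low cells.

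**Figure D5:**
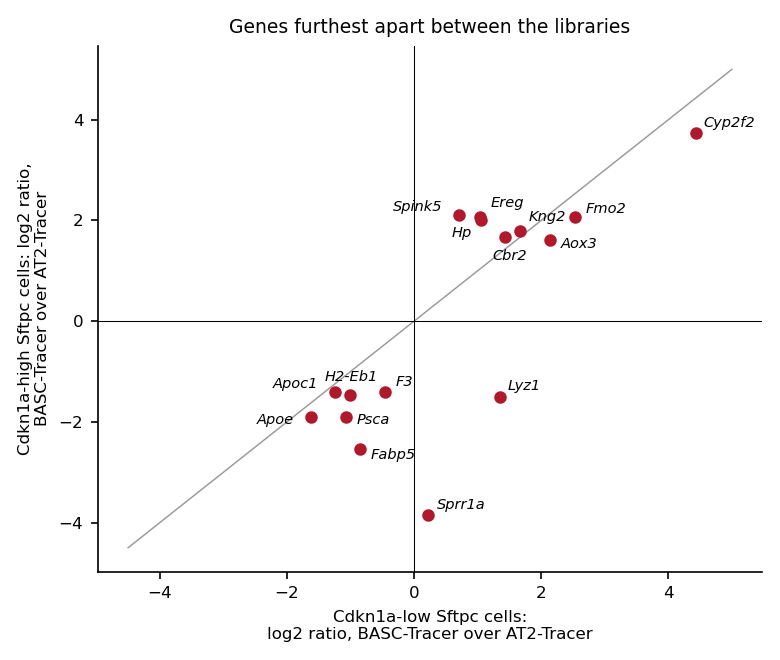
Log2 ratio of CPM + 5, BASC-Tracer over AT2-Tracer, for the 8 highest and 8 lowest genes among Cdkn1a-high Sftpc cells (vertical), against the same ratio in Cdkn1a-low Sftpc cells (horizontal), with a grey line where both are equal. Cyp2f2 lies near the line at 3.74 and 4.43, and Sprr1a and Lyz1 lie far from it, at −3.86 beside 0.22 and at −1.50 beside 1.35.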

How the data were processed

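The deposited matrices hold raw UMI counts, whole numbers per gene and cell barcode, as written by Cell Ranger per the file headers. Cell Ranger 6.1.1 and build mm10 are given in the submitters' processing notes. The annotation release they used was not given in sources used here. All 3 matrices list 32287 features, reporters ZsGFP and tdT included. Lung was dissociated, sorted and made into 5′ libraries, per the labels' protocols. Library totals were 62570890 (Club-Tracer), 29013077 (BASC-Tracer) and 72256580 UMIs (AT2-Tracer) over 5304, 2439 and 8884 barcodes. Members held 298522, 750992 and 3370126 UMIs, so that a count of 0 allows up to 10.0, 3.99 and 0.890 CPM (3 counts).

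From the counts, UMIs were summed over the cells of a group and library and scaled to CPM. Genes were compared when the mean CPM of both groups was 50 or more, and a difference of at least 2-fold in CPM + 5 is a size and not a test. The p53, transitional and stress lists held genes that could reach that mean through the members alone. Their counts against Cdkn1a-low cells are therefore also given over genes at 50 CPM or more in those cells. Counts against the other cells are over genes past the mean limit. Intervals are exact 95% Poisson (CPM), conditional (ratios) and Clopper-Pearson (shares), for counting error only. Thinning to 3000 UMIs used seed 0. Comparisons within a library needed at least 20 members, so Club-Tracer values carry no list medians. Doublets were kept, and an alternative left out the highest Scrublet scores at 0.8% per 1000 barcodes. Libraries shared 73 (Club-Tracer and BASC-Tracer), 122 (Club-Tracer and AT2-Tracer) and 94 barcodes (BASC-Tracer and AT2-Tracer), 4 of them members.

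The rule for named genes took the 12 highest and 12 lowest log2 ratios over Cdkn1a-low cells in libraries with at least 50 members, 8 on each side between libraries, 5 on each side against the other cells, up to 4 at the ends of each gene list, and the 4 markers besides Cdkn1a. Reporter, sex-linked (Xist, Y), mitochondrial, hemoglobin, ribosomal protein, Rik, predicted, T cell receptor and immunoglobulin genes were left out of the ranking. Members, lists and tests were chosen with earlier results of these data known. Gene positions are those of GENCODE vM21 on mm10 and promoters those of RefSeq on GRCm38.p6. Calculations used Python 3.11.15, numpy 2.4.6, scipy 1.17.1, pandas 2.3.3, scanpy 1.11.5 and matplotlib 3.10.9, and the comparison was tested on simulated data. Alternatives changed the limits on Cdkn1a, Sftpc, Scgb1a1, UMIs and mitochondrial RNA, the scaling, the pseudocount, the CPM minimum, the treatment of doublets and shared barcodes, and the cells that held most UMIs of a gene.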

Additional observations from a re-analysis of the deposited data

Results flagged for a closer look

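For 3 genes the members lay on opposite sides of the Cdkn1a-low cells in 2 libraries. With 1 library each, these differences between libraries were not tested.

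Sprr1a had a log2 ratio of −1.26 in the BASC-Tracer and 2.83 in the AT2-Tracer library. It stood at 16.0 CPM in BASC-Tracer members, all from 1 cell, against 45.1 CPM in Cdkn1a-low cells, and at 299 CPM in AT2-Tracer members, against 37.9 CPM. Haptoglobin (Hp), an acute phase protein, had a log2 ratio of 0.086 in the BASC-Tracer library, at 1878 CPM in members against 1768 CPM, and −0.87 in the AT2-Tracer library, at 463 against 851 CPM. The BASC-Tracer difference in Hp was small, and a large part of the UMIs of those members lay in 3 cells, as given above. Lyz1, a lysozyme whose counts may be split with its near-identical copy Lyz2, had a log2 ratio of −2.21 in the BASC-Tracer library, at 218 CPM in members from 3 cells against 1027 CPM, and 0.64 in the AT2-Tracer library, at 626 against 401 CPM.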

How the results depend on the processing

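No paired analysis was possible because each lineage has 1 library, and for the same reason no replicate could be left out. Of the alternative values of the shares, gene counts, p53 and AT2 list medians, 136 stayed within the counting interval (or within 1.5 times for counts) and 30 moved. Shares and gene counts cannot change sign, and none of the list medians did. Of the other values 2308 stayed and 513 moved, 503 of them without a change of sign, and 8 of the 513 were shares. The remaining 2 took the opposite sign to a 2-fold difference. Both were Ereg, BASC-Tracer over AT2-Tracer members, at −1.42 with a Cdkn1a limit of 0.25% and −0.59 without shared barcodes. Shares of Sftpc cells followed the Cdkn1a limit, at 12.3%, 17.5% and 19.1% (Club-Tracer, BASC-Tracer, AT2-Tracer) for 0.1% and 1.40%, 4.82% and 6.001% for 0.25%. Genes at least 2-fold apart from Cdkn1a-low cells numbered 81 in the BASC-Tracer library, and 50 with the 0.1% limit, 211 with 0.25%, 332 after thinning, 174 with a minimum of 20 CPM and 48 with 100 CPM. In the AT2-Tracer library they numbered 51, and 94 with 0.25%, 79 after thinning, 98 with 20 CPM and 30 with 100 CPM. Between BASC-Tracer and AT2-Tracer members 48 genes were apart, and 102 with 0.25%, 272 after thinning, 31 with a pseudocount of 20 CPM, 105 with a minimum of 20 CPM and 26 with 100 CPM. The p53 median of 1.46 in the AT2-Tracer library was 1.32 with a pseudocount of 20 CPM, 1.32 with a minimum of 20 CPM and 2.05 with 100 CPM, and that of 1.43 in the BASC-Tracer library was 1.80 with 100 CPM. The AT2 list median of −0.40 in the AT2-Tracer library was −0.33 with the 0.1% limit, −0.46 as a mean of cells, −0.46 after thinning and −0.53 centred on the median gene, and that of −0.38 in the BASC-Tracer library was −0.71 with the 0.25% limit and −0.47 centred. With doublets left out the shares were 4.64%, 10.1% and 11.97% and the p53 medians 1.48 in the BASC-Tracer and 1.54 in the AT2-Tracer library. The transitional median of the BASC-Tracer library ranged from −0.22 to 0.39. Removal of the highest cells of a gene, removal of shared barcodes and the Club-Tracer ratios were chosen after seeing the data. The causes of these moves were not tested. Depth limits the Club-Tracer members most, with 18 cells.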

Other observations

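Several genes of other lists were also apart between members and Cdkn1a-low cells. Thbs1, thrombospondin 1, of the TGF-beta and YAP list stood at 610 CPM in AT2-Tracer members, against 262 CPM in Cdkn1a-low cells. The list had a median log2 ratio of 0.67 over 7 tested genes in that library (6 above 0, against 68.6% of all genes). In the BASC-Tracer library the median was 0.54 over 6 (6 above 0, against 60.7%). Among all 16 list genes CPM was lower in members for 5 in the AT2-Tracer and 8 in the BASC-Tracer library. Of all genes with a UMI 42.8% and 51.1% were lower. The YAP target Ccn2 was among the lower genes, at 24.9 against 40.5 CPM and 5.33 against 48.6 CPM in those libraries. The EGF receptor ligands Areg and Hbegf stood at 865 and 523 CPM in AT2-Tracer members, against 512 and 304 CPM. Their list of EGF family and other ligands had a median of 0.20 over 5 tested genes, beside 0.14 over all genes. Among its 16 genes CPM was lower in AT2-Tracer members for 5, where 42.8% of genes with a UMI were lower. The AP-1 gene Fosl1 stood at 54.3 against 15.9 CPM and the autophagy receptor Sqstm1 at 1186 against 615 CPM. Interferon response genes had medians of 0.58 in the AT2-Tracer and 0.37 in the BASC-Tracer library over 4 tested genes each. Over all genes the medians were 0.14 and 0.09. Of the 4, only B2m, H2-K1 and H2-D1 were at 50 CPM or more in Cdkn1a-low cells. Isg15, a ubiquitin-like interferon target, stood at 40.6 against 16.8 CPM and 45.3 against 9.65 CPM in those libraries. CPM was higher in members for 14 of 15 list genes in the AT2-Tracer library, where 57.2% of genes with a UMI were higher. In the BASC-Tracer library it was higher for 10 of 15, against 48.9%, and lower for Ifit1, Ifit3, Ifitm3, Oasl2 and Zbp1.

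Among lung transcription factors Nkx2-1, the master regulator of lung epithelium, differed little, at 250 CPM in BASC-Tracer and 215 CPM in AT2-Tracer members, against 213 and 191 CPM in Cdkn1a-low cells. Cebpd, a stress-induced C/EBP factor, stood at 505 and 431 CPM in members, against 261 and 240 CPM. Basement membrane genes had medians of −0.28 in the AT2-Tracer and −0.30 in the BASC-Tracer library. In the BASC-Tracer library Elovl1, a fatty acid elongase, stood at 459 CPM in members, against 1169 CPM, and in the AT2-Tracer library at 637 against 973 CPM. Cdkn2a stood at 49.3 CPM in AT2-Tracer Cdkn1a-high cells without Sftpc, beside 8.90 CPM in members. Genes named in this section were chosen after their values were seen.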
